A study of Mus musculus with 14 samples.

Results

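The 50 genes described here encode the machinery that copies DNA: origin recognition and loading factors, the replicative helicase and the proteins that switch it on, the polymerases, the sliding clamp and its loader, and the enzymes that supply nucleotides. They were taken as a fixed list of gene symbols, which was chosen with earlier results of these data known. All 50 were found among the 19155 genes with a named probe set on the arrays. Expression had been measured in multipotent progenitors of the bone marrow (BM), either MPP3, a myeloid-biased population sorted from Lin-/cKit+/Sca-1+ cells for CD48 without Flk2 or CD150, or MPP4, a lymphoid-primed population sorted from the same gate for Flk2. The 4 groups were old MPP4 (3 arrays), young MPP4 (5 arrays), old MPP3 (3 arrays) and young MPP3 (3 arrays), all from wild-type C57BL/6 mice that carried no other allele and had received no treatment. Old mice were 24 months of age and young mice 8 to 10 weeks of age, and each array held amplified RNA of 20000 double-sorted cells. The comparisons ask how the genes differ with age in each population, how the populations differ at each age, and whether the age difference is the same in both populations.

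In each cell cycle, origins are marked by the origin recognition complex, CDC6 and CDT1 load the MCM2 to MCM7 helicase there, and this licensing is held in check by geminin. In S phase the kinase CDC7 with its partner DBF4, CDC45 and the GINS complex turn the loaded helicase into a moving fork, where primase, 3 DNA polymerases, the clamp PCNA and the nucleotide-making enzymes work together. Multipotent progenitors divide more often than the mostly quiescent haematopoietic stem cells from which they come, and genes of this machinery are widely used as a readout of cells that are in, or about to enter, S phase.

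Many genes of S phase carry binding sites for E2F transcription factors close to their start. Promoter windows of 300 bases (250 before to 50 after the start, RefSeq, build GRCm38.p6) were found for 42 of the 50 genes, and at least 1 of the words TTTGGCGC, TTTCGCGC and TTTCCCGC, read on both strands with overlaps allowed, lay in a window of 17 of the 42 (40.5%), against 453 of 15214 measured genes with a window (2.98%). The CHR word TTTGAA, a site linked to late cell cycle genes, was in 7 of 42 (16.7%) against 17.3% of genes, and CCAAT was in 25 of 42 (59.5%) against 41.7%. Below, 5 windows are shown because their genes stand in the comparisons below or hold the most words, with the E2F words in capitals and position 0 at the first base after the 250 upstream bases. The words start at position -110 in Mcm6 (3 words, of which 2 overlap), at -10 in Rfc3 (2 words), at -138 in Cdc6, at -41 in Gins3 and at 10 in Pole2.
Mcm6, chr1:128359656-128359955 on the minus strand: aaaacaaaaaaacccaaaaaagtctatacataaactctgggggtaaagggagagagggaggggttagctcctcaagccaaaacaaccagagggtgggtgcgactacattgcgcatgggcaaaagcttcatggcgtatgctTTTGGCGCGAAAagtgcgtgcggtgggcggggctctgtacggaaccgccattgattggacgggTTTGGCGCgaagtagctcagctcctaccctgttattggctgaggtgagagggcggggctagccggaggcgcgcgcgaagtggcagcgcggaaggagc
Rfc3, chr5:151651159-151651458 on the minus strand: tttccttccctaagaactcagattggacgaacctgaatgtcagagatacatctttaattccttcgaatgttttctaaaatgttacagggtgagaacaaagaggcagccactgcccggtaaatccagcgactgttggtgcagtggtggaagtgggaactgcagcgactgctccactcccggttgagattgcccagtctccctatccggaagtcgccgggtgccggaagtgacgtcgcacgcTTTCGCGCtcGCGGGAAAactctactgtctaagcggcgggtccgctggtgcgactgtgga
Cdc6, chr11:98907901-98908200 on the plus strand: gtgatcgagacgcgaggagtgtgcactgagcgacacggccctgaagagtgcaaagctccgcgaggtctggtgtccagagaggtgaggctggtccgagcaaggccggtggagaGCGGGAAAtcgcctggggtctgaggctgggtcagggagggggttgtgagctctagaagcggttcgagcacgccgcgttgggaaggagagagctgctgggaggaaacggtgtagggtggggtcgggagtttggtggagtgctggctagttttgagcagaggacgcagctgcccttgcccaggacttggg
Gins3, chr8:95633309-95633608 on the plus strand: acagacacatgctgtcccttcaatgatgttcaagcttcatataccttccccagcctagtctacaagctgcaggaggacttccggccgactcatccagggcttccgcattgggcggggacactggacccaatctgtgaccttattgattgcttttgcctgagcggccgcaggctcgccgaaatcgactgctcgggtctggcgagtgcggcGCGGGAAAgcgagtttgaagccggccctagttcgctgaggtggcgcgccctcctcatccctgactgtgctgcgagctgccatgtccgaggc
Pole2, chr12:69228141-69228440 on the minus strand: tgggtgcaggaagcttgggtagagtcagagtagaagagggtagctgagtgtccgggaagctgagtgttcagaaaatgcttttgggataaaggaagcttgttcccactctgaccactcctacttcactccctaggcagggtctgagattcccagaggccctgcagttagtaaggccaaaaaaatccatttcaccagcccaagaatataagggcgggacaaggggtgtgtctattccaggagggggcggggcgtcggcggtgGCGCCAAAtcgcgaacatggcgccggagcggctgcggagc
A match says only that these letters are in the window.

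Values are given as normalized values, which are the ranks of the probe sets on each array mapped to an exponential scale. The median probe set thus stood at 0.662 to 0.675 on every array, and a higher value means a higher rank. The values have no true zero, so differences and not folds are given, and no gene's level is set against another's. Where the values of a group are listed, they stand in the order of the replicate numbers, and adjusted p-values are those of limma over all genes. The arrays correlated with each other at 0.948 to 0.994 across probe sets. Flt3, which encodes the marker Flk2, averaged higher in MPP4 over both ages (adjusted p = 0.00199 by limma), as the sort requires. Neutrophil markers were higher on average in old than in young MPP3 for 7 of 7 genes, with a mean of the list between 1.95 and 2.80 on old MPP3 arrays and between 1.33 and 1.87 on young MPP3 arrays, against 0.884 to 1.06 in old MPP4 and 0.844 to 0.940 in young MPP4. The monocyte list ran from 0.553 to 0.961 in old MPP3 and from 0.490 to 0.537 in young MPP3, beside 0.558 to 0.666 in old MPP4 and 0.474 to 0.599 in young MPP4, and the B lineage, T and NK, erythroid, megakaryocyte and stromal lists averaged between 0.432 and 1.19 in the 4 groups. The erythroid list averaged 1.19 in young MPP3, 0.935 in old MPP3, 0.611 in young MPP4 and 0.499 in old MPP4. The B lineage list was at 1.12 on old MPP3 replicate 3, beside 0.622 and 0.575 on replicates 1 and 2. The part of the cells of these lists in the MPP3 results was not tested. The dimmest 33.3% of all probe sets divided the arrays into 2 sets, called array sets 1 and 2: set 1 held all 6 old arrays together with replicates 1 and 2 of young MPP4 and replicate 1 of young MPP3, and set 2 held the other 5 young arrays. Young arrays had also been released with an earlier study, so that age and array series cannot be told apart. Of the sex markers, Xist was above 1 on young MPP3 replicate 1 and on young MPP4 replicates 1, 4 and 5. It was at most 0.215 on the other arrays. Eif2s3y was at most 0.0261 on these 2 replicates numbered 1, and 0.855 and 1.89 on young MPP4 replicates 4 and 5. On the other arrays Eif2s3y was at least 1.63. All arrays with Xist above 1 were young, so sex cannot be fully told apart from age. The probe set listed for Tk1 has an identifier that lies among those of another chromosome (0 of its 20 neighbours were on chromosome 11, where Tk1 is, and 14 on chromosome 8), so the values given for Tk1 may not be those of that gene.

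No replication gene passed the adjusted p threshold of 0.05 in any of the 7 comparisons, and every value below is given with that limit. In old against young MPP4, where 0% of all genes passed, 43 of the 50 genes had a higher mean in the old cells, with a median difference of 0.0782 against a median of -0.000171 over all genes, of which 49.8% were higher. The smallest adjusted p among the 50 was 0.368. At an unadjusted p under 0.05, 7 of the 50 were higher and 1 was lower, beside 4.5% and 5.27% of all genes. The old and young arrays did not overlap for 5 genes that were higher (3.28% of all genes) and 1 that was lower (4.01% of all genes). The mean over the 50 genes was 1.84 to 1.95 on the 3 old arrays and 1.76 to 1.89 on the 5 young arrays, so these ranges overlapped. In bulk RNA, more cells in S phase and more of these transcripts per cell cannot be told apart.

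The MPP4 difference was smaller in number when array sets were kept together. With set 1 only, 32 of the 50 genes were higher in old MPP4 (44.3% of all genes), and without the arrays with Xist above 1 the count was 37. Leaving out 1 array at a time gave 37 to 43 genes. Within young MPP4 itself, the arrays of set 1 lay above all those of set 2 for 19 of the 50 genes (38.0%, against 27.5% of all genes). They lay below them for 6 (12%, against 21.4%). Separation by array set was thus common among all genes as well, and the 50 leaned further towards higher values in set 1.

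In MPP3, about as many genes had a higher as a lower mean in old cells. The mean was higher in old MPP3 for 24 of the 50 genes, at a median of -0.00358 (all genes 0.000183, 50.1% higher, 0% passed). The smallest adjusted p was 0.493. At an unadjusted p under 0.05, 1 was higher and 2 were lower, beside 3.44% and 4.75% of all genes, and the arrays did not overlap for 2 higher and 2 lower genes, beside 6.14% and 8.04%. Counted together, 20 genes had a higher mean with age in both populations, 23 were higher in old MPP4 and lower in old MPP3, 4 were lower in old MPP4 and higher in old MPP3, and 3 were lower in both.

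The age difference of MPP4 exceeded that of MPP3 for 39 of the 50 genes, with a median of 0.0918 for the difference between them (all genes -0.00194). No gene passed (0% of all genes), the smallest adjusted p was 0.626, and an unadjusted p under 0.05 was reached by 3 genes in the positive and 1 in the negative direction, beside 3.44% and 2.83% of all genes. The count was 30 with array set 1 only and 30 without the arrays with Xist above 1. The median was 0.0474 with array set 1 only and 0.0449 without the 2 young arrays numbered 1. Values of fits with array set 1 only, here and below, rest on 1 young MPP3 array. Averaged over both populations, 34 of 50 genes had a higher mean in old cells (median 0.0199, all genes 0.000576), a count that was 25 with the array set as a term (44.3% of all genes) and 28 with array set 1 only (43.9%), and 5 genes higher and 0 lower reached an unadjusted p under 0.05, beside 5.95% and 7.63% of all genes. Of all genes 0.0418% passed in that average, and the smallest adjusted p among the replication genes was 0.167, for Rrm1. With arrays weighted by their quality 22.9% of all genes passed, and 8 of the 50 did, Orc6, Pola1, Pole, Rfc1, Lig1, Rrm1 and Tyms as higher and Cdc7 as lower (adjusted p by limma from 0.00591 for Rrm1 to 0.0442 for Lig1). With the same weights 3% of all genes and 4 of the 50 passed in the difference between the age differences, Cdc7, Pold3 and Pole2 as positive and Gins3 as negative (adjusted p from 0.0128 to 0.0468).

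**Figure D1:**
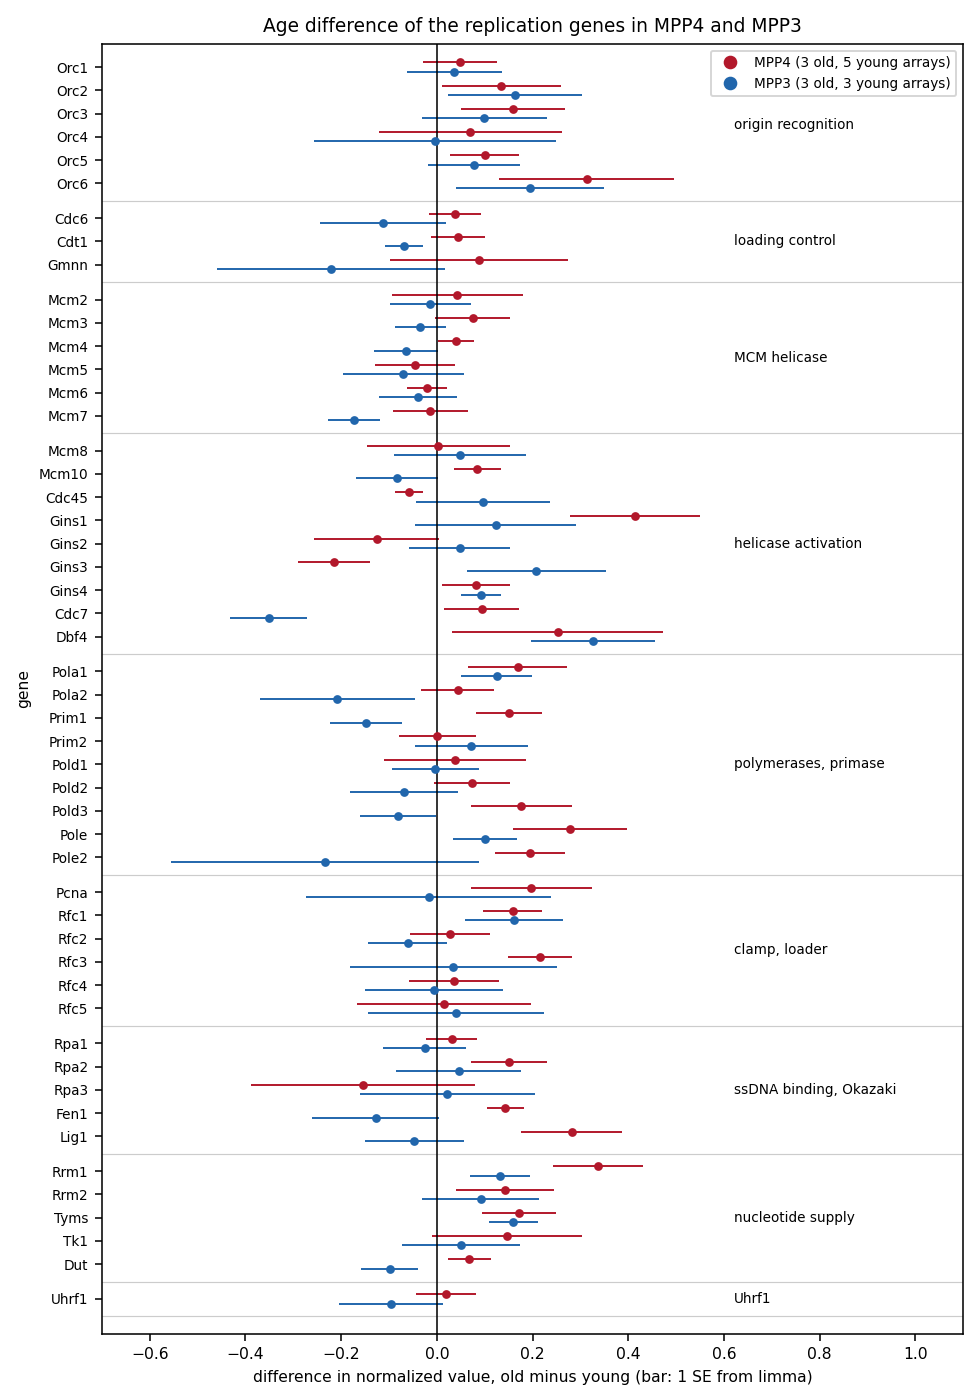
Difference in normalized value, old minus young, for each of the 50 genes in MPP4 (red) and MPP3 (blue), with 1 SE from limma, grouped by role. In MPP4, 43 of 50 points lie to the right of 0 and in MPP3 24 do, and no gene passed the adjusted threshold in either population.

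Between populations, the counts leaned to MPP3 in young mice and to MPP4 in old mice, a contrast that is the same as the one between the age differences and in which 0 genes passed. The young count did not lean with array set 1 only, where replicate 1 was the only young MPP3 array. In young mice, 17 of the 50 genes had a higher mean in MPP4 than in MPP3 (median difference -0.0428, and 25 of 50 with array set 1 only, beside 46.8% of all genes), 1 higher and 5 lower at an unadjusted p under 0.05, beside 5.48% and 5.53% of all genes. Of all genes 0.131% passed there, and the smallest adjusted p of a replication gene was 0.159. Young MPP4 and young MPP3 arrays did not overlap for 1 higher gene (Gins3, beside 3.74% of all genes) and 1 lower gene (Cdc6, beside 3.72%). In old mice, 34 of 50 genes had a higher mean in MPP4 than in MPP3 (median 0.0490, 0% of all genes passed, smallest adjusted p 0.281). There 4 were higher and 1 was lower at an unadjusted p under 0.05 (6.19% and 3.64% of all genes), and 5 higher and 1 lower did not overlap (9.03% and 7.6%). Averaged over both ages, 25 of 50 had a higher mean in MPP4 (median -0.00328), 0 higher and 1 lower at an unadjusted p under 0.05, beside 7.31% and 5.95% of all genes, while 0.981% of all genes passed. With array weights 9.44% of all genes and 8 of the 50 passed in young mice, Gins3 as higher and Cdc6, Cdt1, Mcm3, Mcm10, Cdc7, Pole2 and Lig1 as lower in MPP4 (adjusted p by limma from 0.00867 for Gins3 to 0.0464 for Mcm3), and over both ages 10.7% of all genes and 2 of the 50, Cdc6 and Mcm3, both lower in MPP4 (adjusted p 0.00539 and 0.0282). Young MPP4 held the lowest of the 4 group means for 22 of the 50 genes and old MPP4 the highest for 22.

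**Figure D2:**
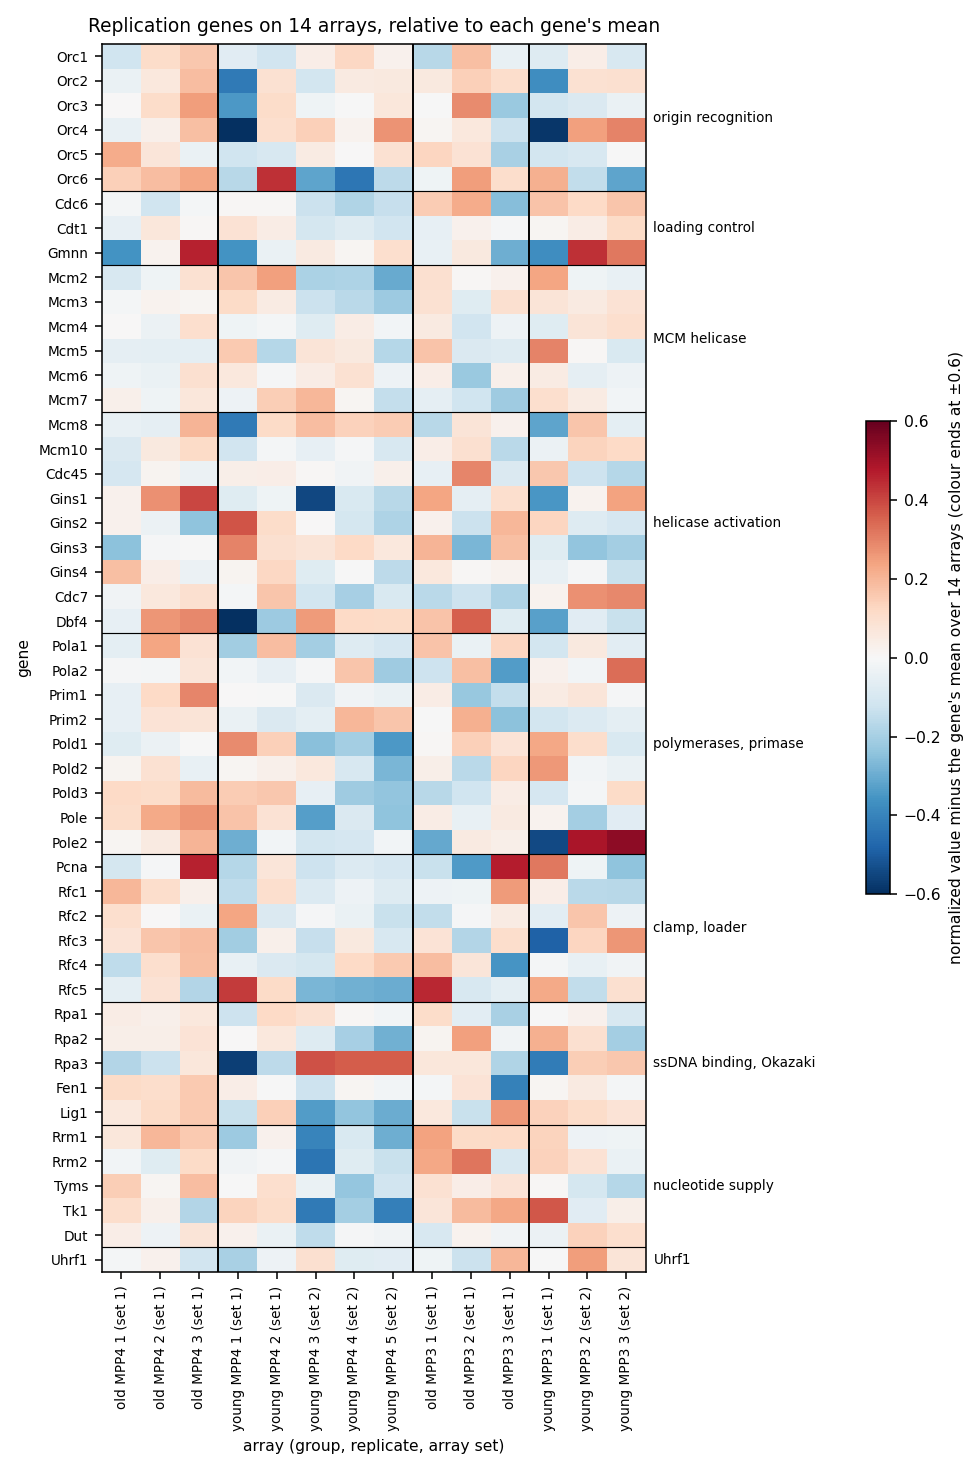
Normalized value of each of the 50 genes on each of the 14 arrays, minus that gene's mean over all arrays, with red above and blue below, columns ordered as old MPP4, young MPP4, old MPP3 and young MPP3, and rows ordered by role. Young MPP4 replicate 1 and young MPP3 replicate 1 are blue, in differing depth, and below all other arrays for Orc2, Orc4, Mcm8, Dbf4, Rfc3 and Rpa3.

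The origin recognition complex, whose 6 subunits mark the sites where replication can start, had a higher mean in old cells for 6 of 6 genes in MPP4 (median difference 0.117) and 5 of 6 in MPP3 (median 0.0885). The differences ran from 0.0487 for Orc1 to 0.313 for Orc6 in MPP4, and from -0.00401 for Orc4 to 0.195 for Orc6 in MPP3, and all of these groups overlapped. Orc6, the smallest subunit, averaged 2.30 ± 0.0452 in old MPP4 and 1.98 ± 0.336 in young MPP4 (SD, n = 3 and 5). Orc2 and Orc4 belonged to 6 genes for which both young arrays numbered 1 lay below all other 12 arrays, together with Mcm8, Dbf4, Rfc3 and Rpa3, which was 12% of the 50 genes against 2.96% of all genes. Orc4, for instance, stood at 1.59, 1.67 and 1.81 in old MPP4 and at 1.02, 1.73, 1.78, 1.65 and 1.90 in young MPP4. The other 4 young MPP4 arrays overlapped with the old ones.

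Of the 3 genes for helicase loading and its control, Cdc6 had the smallest adjusted p, between the populations of young mice. Cdc6, which encodes the ATPase that brings the helicase to the origin, stood at 1.36, 1.25 and 1.36 in old MPP4 and at 1.38, 1.38, 1.25, 1.20 and 1.24 in young MPP4. In MPP3 it was at 1.53, 1.60 and 1.12 on the old arrays and at 1.55, 1.49 and 1.54 on the young arrays. All 5 young MPP4 arrays were below all 3 young MPP3 arrays, with a difference of -0.239 (SE 0.0508, adjusted p = 0.161) by limma. This difference passed with the array set as a term (adjusted p = 0.0314, where 1.41% of all genes passed). It did not pass without the arrays with Xist above 1, where 0% of all genes passed. Averaged over both ages the difference was -0.164 (SE 0.0681, adjusted p = 0.328). Old MPP3 replicate 3 stood well below its 2 partners, and without it the average difference over both ages passed the threshold (-0.237, adjusted p = 0.0181, where 1.26% of all genes passed).

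Cdt1, the second loading factor, had values of 0.878, 0.994 and 0.930 in old MPP4 and 1.01, 0.967, 0.820, 0.846 and 0.808 in young MPP4. On the MPP3 arrays it was 0.874, 0.951 and 0.918 in old and 0.938, 0.971 and 1.04 in young mice, and both pairs of groups overlapped. Gmnn encodes geminin, the inhibitor of CDT1, and scattered within groups, with an SD of 0.412 in old MPP4 and 0.438 in young MPP3 beside age differences of 0.0884 in MPP4 and -0.221 in MPP3. Its values were 1.08, 1.46 and 1.90 in old MPP4 and 1.08, 1.40, 1.50, 1.45 and 1.54 in young MPP4, and 1.39, 1.50 and 1.15 in old MPP3 against 1.07, 1.88 and 1.76 in young MPP3. All 3 genes had a higher mean in old than young MPP4 and a lower mean in old than young MPP3, with differences between the age differences of 0.150, 0.112 and 0.309 for Cdc6, Cdt1 and Gmnn, and the smallest adjusted p of the 3 was 0.878.

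The 6 genes of the replicative helicase differed little in mean with age in MPP4, with 3 of 6 higher and differences from -0.0465 (Mcm5) to 0.0751 (Mcm3). In MPP3, 0 of 6 had a higher mean in old cells, with differences from -0.173 (Mcm7) to -0.0139 (Mcm2). Mcm7 stood at 1.79, 1.72 and 1.63 in old MPP3 and at 1.94, 1.89 and 1.83 in young MPP3, so that all old arrays were below all young ones, a difference of -0.173 (SE 0.0540, adjusted p = 0.549). In MPP4 it was at 1.87, 1.82 and 1.91 on old and at 1.81, 1.99, 2.04, 1.86 and 1.70 on young arrays, which overlap. Between the populations Mcm7 was above in old MPP4 on every array when set against old MPP3, by 0.153 (SE 0.0502, adjusted p = 0.435).

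Mcm2, another helicase subunit, is one of the genes whose spread in young MPP4 followed the array set. Its values were 1.85, 1.92 and 2.04 in old MPP4 and 2.12, 2.20, 1.76, 1.76 and 1.65 in young MPP4, where the first 2 arrays are those of set 1 and lie above all others of that group. In MPP3 they were 2.05, 1.96 and 1.98 in old and 2.19, 1.93 and 1.91 in young mice. Mcm6, with 3 E2F words in its promoter window, varied little, at 2.97, 2.95 and 3.09 in old MPP4, 3.05, 2.98, 3.03, 3.08 and 2.96 in young MPP4, 3.03, 2.77 and 3.02 in old MPP3 and 3.04, 2.94 and 2.96 in young MPP3. Its difference between young MPP4 and young MPP3 was 0.0442 (SE 0.0375, adjusted p = 0.753) and turned to -0.0202 with array set 1 only.

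Of the 9 genes grouped under helicase activation, where Mcm8 was also placed, 6 had a higher mean in old than in young MPP4 and 7 in old than in young MPP3. None passed in either by limma, with 2 under an unadjusted p of 0.05 in MPP4 (Gins1 higher, Gins3 lower) and 1 in MPP3 (Cdc7, lower). Cdc7 encodes the kinase that phosphorylates the loaded helicase. It was at 0.899, 0.938 and 0.877 on the old MPP3 arrays and at 1.08, 1.34 and 1.35 on the young MPP3 arrays. There was no overlap, with a difference of -0.351 (SE 0.0808, adjusted p = 0.493). The young array nearest to the old ones was replicate 1, of array set 1. Among the alternatives the difference was as small as -0.176. In MPP4 Cdc7 was at 1.04, 1.12 and 1.16 in old and at 1.05, 1.23, 0.953, 0.862 and 0.971 in young mice, a difference of 0.0938 with overlap. The difference between these age differences was 0.445 (SE 0.119, adjusted p = 0.626), the smallest p among the replication genes in that contrast. In old mice Cdc7 was also higher in MPP4 than in MPP3 on every array, by 0.202 (SE 0.0385, adjusted p = 0.281), whereas the young groups overlapped with a difference of -0.243.

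Dbf4, the regulatory subunit without which CDC7 is inactive, had the opposite sign in MPP3. It stood at 1.98, 2.17 and 1.74 in old MPP3 and at 1.48, 1.74 and 1.68 in young MPP3, a difference of 0.327 (SE 0.130, adjusted p = 0.610), and the groups overlapped by 1 array on each side. In MPP4 the values were 1.76, 2.07 and 2.10 in old and 1.11, 1.59, 2.06, 1.93 and 1.93 in young mice, where replicate 1 is far below the rest. The 2 partners of the kinase had mean differences of -0.351 and 0.327 with age in MPP3, neither of which passed. Among the alternatives these were as small as -0.176 and 0.224.

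**Figure D3:**
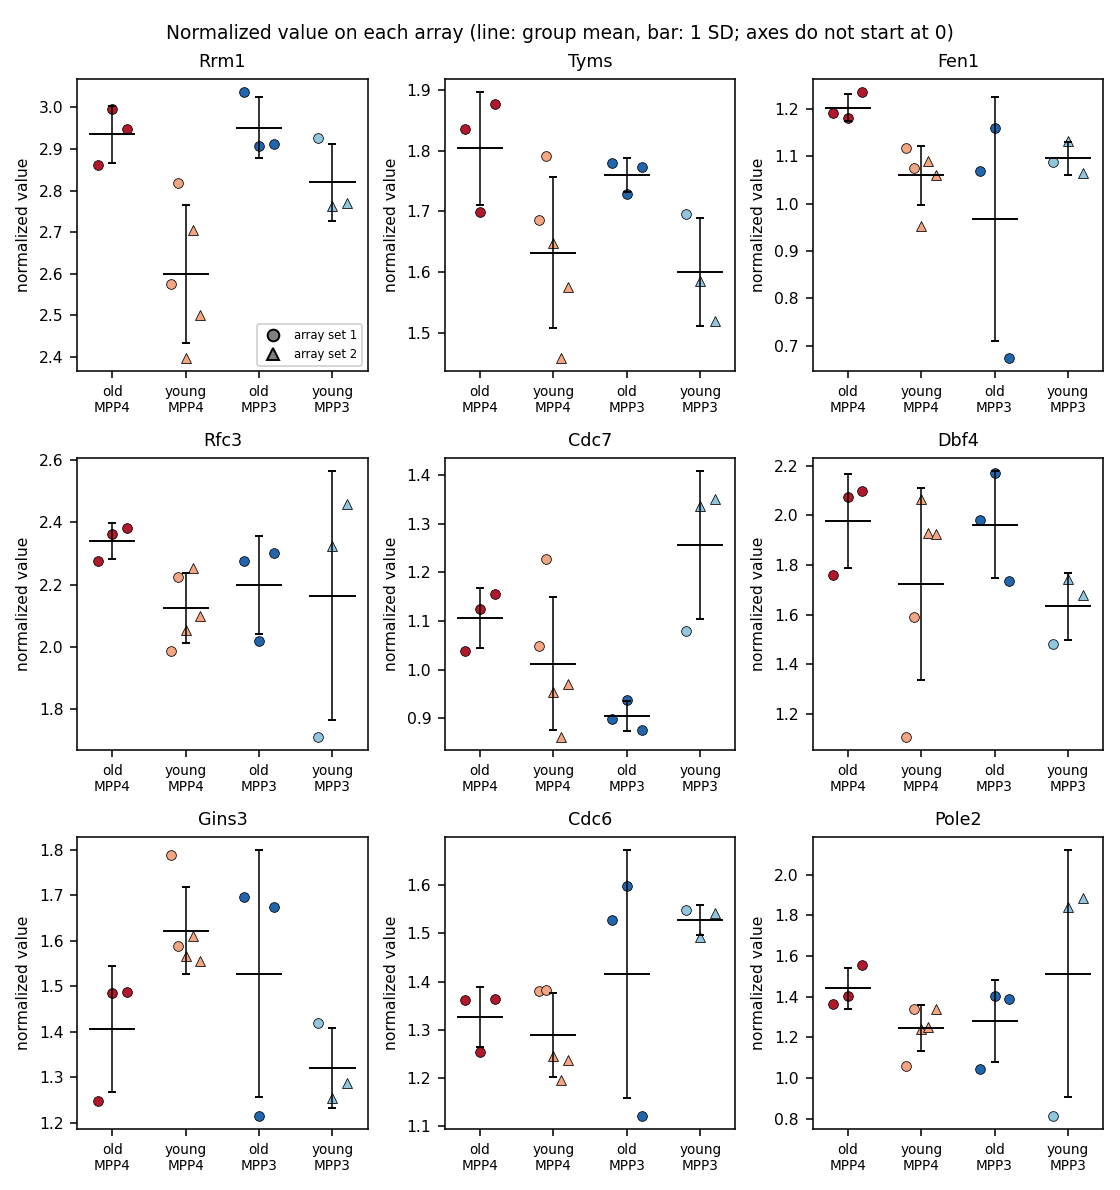
Normalized value of 9 genes on every array, in the order old MPP4, young MPP4, old MPP3 and young MPP3, with circles for array set 1, triangles for array set 2, a line at the group mean and a bar of 1 SD. Rrm1, Fen1, Rfc3 and Pole2 have all 3 old MPP4 arrays above all 5 young MPP4 arrays, Gins3 has all 3 below, and Cdc7 has all 3 old MPP3 arrays below all young MPP3 arrays.

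The 4 GINS subunits form a single complex at the fork, yet their age differences in MPP4 were spread from -0.215 to 0.414. Gins3 stood at 1.25, 1.48 and 1.49 in old MPP4 and at 1.79, 1.59, 1.57, 1.61 and 1.55 in young MPP4, so that every old array was below every young one, with a difference of -0.215 (SE 0.0748, adjusted p = 0.448). Gins1, chosen after its values were seen because it had the largest difference of the 50 in this comparison, had 1.81, 2.06 and 2.18 in old MPP4 against 1.71, 1.76, 1.24, 1.69 and 1.61 in young MPP4, with every old array above every young one (difference 0.414 (SE 0.136, adjusted p = 0.440)). Gins2 overlapped, at 2.22, 2.16 and 1.95 in old and 2.57, 2.31, 2.20, 2.09 and 2.01 in young MPP4, a difference of -0.125 (SE 0.130, adjusted p = 0.787).

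In MPP3 the order was different. Gins3 was at 1.70, 1.21 and 1.67 in old and 1.42, 1.25 and 1.29 in young MPP3, where 2 old arrays were above all young ones and 1 below. The difference between its age differences was -0.423 (SE 0.159, adjusted p = 0.741). In young mice Gins3 was higher in MPP4 than in MPP3 on every array, by 0.302 (SE 0.0633, adjusted p = 0.159), and in old mice the 2 populations overlapped, with a difference of -0.121. That young difference passed with the array set as a term (adjusted p = 0.0453, 1.41% of all genes) and without the 2 young arrays numbered 1 (adjusted p = 0.0207, 0.715% of all genes). It did not pass without the arrays with Xist above 1, where 0% of all genes passed. Gins4 did not overlap with age in MPP3, with 2.43, 2.37 and 2.38 in old MPP3 above 2.32, 2.35 and 2.23 in young MPP3 on every array (difference 0.0923 (SE 0.0420, adjusted p = 0.641)), and 2.54, 2.40 and 2.33 in old against 2.38, 2.48, 2.29, 2.36 and 2.20 in young MPP4.

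Cdc45, which joins MCM and GINS in the active helicase, stood at 1.61, 1.72 and 1.67 in old MPP4 and at 1.74, 1.75, 1.71, 1.68 and 1.73 in young MPP4, a small difference of -0.0574 (SE 0.0292, adjusted p = 0.567) with overlap. On MPP3 arrays it was 1.66, 2.00 and 1.62 in old and 1.87, 1.58 and 1.53 in young mice. The difference between the age differences was -0.154 (SE 0.132, adjusted p = 0.908), and it turned to 0.0334 with array set 1 only. Mcm10, which helps the helicase to open, was at 1.21, 1.31, 1.27, 1.31 and 1.22 in young MPP4 and at 1.29, 1.45 and 1.44 in young MPP3, with overlap and a difference of -0.129 (SE 0.0470, adjusted p = 0.379). Its old values were 1.24, 1.38 and 1.43 in MPP4 and 1.36, 1.41 and 1.16 in MPP3. Mcm8 differed by 0.00300 with age in MPP4 and by 0.0485 in MPP3.

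All 9 polymerase and primase genes had a higher mean in old than in young MPP4, with a median difference of 0.151, while 3 of 9 did so in MPP3 (median -0.0689). Their mean was 1.73 to 1.85 on the old MPP4 arrays. In young MPP4 it was 1.73 and 1.78 on the arrays of set 1 and 1.58 to 1.68 on those of set 2. Pole encodes the catalytic subunit of polymerase epsilon, which copies the leading strand. It was at 1.74, 1.86 and 1.90 in old MPP4 and at 1.81, 1.72, 1.31, 1.55 and 1.40 in young MPP4, where the arrays of set 2 were the lowest. The old values overlap only with young replicate 1, and the difference was 0.278 (SE 0.119, adjusted p = 0.514). In MPP3 it was at 1.68, 1.59 and 1.69 in old and 1.66, 1.43 and 1.57 in young mice, and the old MPP4 arrays were above the old MPP3 arrays by 0.182 (SE 0.0520, adjusted p = 0.389), with no overlap.

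Pole2, the second epsilon subunit, was chosen after its values were seen because its groups did not overlap in MPP4. Its values were 1.36, 1.41 and 1.56 in old MPP4 and 1.06, 1.34, 1.24, 1.25 and 1.34 in young MPP4 (difference 0.195 (SE 0.0733, adjusted p = 0.476)). In MPP3 they were 1.05, 1.41 and 1.39 in old and 0.813, 1.84 and 1.89 in young mice, where the first young array was far below its 2 partners. Young MPP4 against young MPP3 gave a difference of -0.268 (SE 0.240, adjusted p = 0.770). Without that young MPP3 array, Pole2 was the only replication gene that passed in this comparison by limma, lower in MPP4 at a difference of -0.619 (adjusted p = 0.0411, where 0.564% of all genes passed).

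The alpha polymerase, which with primase lays down the first nucleotides of each new strand, had Pola1 at 2.45, 2.75 and 2.59 in old MPP4 and 2.30, 2.69, 2.31, 2.43 and 2.41 in young MPP4, and at 2.68, 2.47 and 2.64 in old MPP3 against 2.40, 2.57 and 2.45 in young MPP3. Both pairs overlapped, with differences of 0.169 and 0.125. Its accessory subunit Pola2 was at 1.05, 1.04 and 1.12 in old and 1.04, 1.00, 1.04, 1.22 and 0.837 in young MPP4, and at 0.927, 1.23 and 0.719 in old and 1.08, 1.04 and 1.39 in young MPP3. These values gave an average age difference of -0.0821 (SE 0.0871, adjusted p = 0.713).

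Prim1 encodes the catalytic primase subunit and was among the genes whose age differences diverged. It stood at 2.38, 2.55 and 2.72 in old MPP4 and at 2.43, 2.43, 2.35, 2.41 and 2.39 in young MPP4, against 2.47, 2.21 and 2.29 in old MPP3 and 2.48, 2.50 and 2.43 in young MPP3. The age difference was 0.151 in MPP4 and -0.148 in MPP3, and the difference between them was 0.298 (SE 0.106, adjusted p = 0.719). Prim2, the large primase subunit, was at 0.910, 0.862, 0.891, 1.15 and 1.12 in young MPP4 and 0.838, 0.870 and 0.890 in young MPP3 (difference 0.120 (SE 0.0757, adjusted p = 0.637), or -0.00315 without the arrays with Xist above 1). In old mice it was at 0.901, 1.03 and 1.03 in MPP4 and 0.947, 1.16 and 0.703 in MPP3.

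Polymerase delta copies the lagging strand, and 3 of its subunits are among the genes measured. Pold3, an accessory subunit, was at 2.71, 2.71 and 2.79 in old MPP4 and 2.43, 2.48 and 2.64 in old MPP3, above on every array by 0.220 (SE 0.0620, adjusted p = 0.385). Pold1, the catalytic subunit, was at 1.36, 1.40 and 1.44 in old MPP4 and 1.45, 1.58 and 1.52 in old MPP3, below on every array, with a difference of -0.116 (SE 0.0424, adjusted p = 0.484). In young mice Pold3 was at 2.75, 2.76, 2.54, 2.38 and 2.36 in MPP4 and 2.50, 2.59 and 2.71 in MPP3, and Pold1 at 1.72, 1.58, 1.19, 1.23 and 1.09 in MPP4 and 1.67, 1.54 and 1.35 in MPP3. Pold2, a further subunit, overlapped between the old populations, with a difference of 0.0187 (SE 0.0838, adjusted p = 0.972). The young pairs of Pold3 and Pold1 overlapped, and in young MPP4 the arrays of set 1 were the highest for both genes.

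The clamp and its 5 loader subunits had a higher mean in old MPP4 for 6 of 6 genes (median difference 0.0971) and in old MPP3 for 3 of 6. Their mean was 2.49 to 2.59 on the old MPP4 arrays. In young MPP4 it was 2.50 and 2.51 on the arrays of set 1 and 2.36 to 2.44 on those of set 2. Pcna, the sliding clamp that tethers the polymerases, was at 4.48, 4.58 and 5.05 in old MPP4 and 4.42, 4.66, 4.46, 4.51 and 4.49 in young MPP4. In MPP3 it was at 4.46, 4.25 and 5.06 in old and 4.91, 4.56 and 4.35 in young mice, with overlap in both. Rfc3 stood at 2.27, 2.36 and 2.38 in old MPP4 and at 1.99, 2.22, 2.05, 2.25 and 2.10 in young MPP4, with no overlap and a difference of 0.216 (SE 0.0661, adjusted p = 0.409). Its MPP3 values were 2.28, 2.02 and 2.30 in old and 1.71, 2.33 and 2.46 in young mice, where the first young array is the lowest of all 14. Rfc1, the large subunit of the loader, was at 2.49, 2.40 and 2.32 in old and 2.14, 2.40, 2.21, 2.26 and 2.21 in young MPP4, and at 2.26, 2.27 and 2.55 in old and 2.33, 2.13 and 2.13 in young MPP3. Its average age difference was 0.160 (SE 0.0595, adjusted p = 0.285).

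Among the genes for single-strand binding and for joining Okazaki fragments, Fen1 had the smallest adjusted p of the MPP4 age comparison. Fen1 encodes the flap endonuclease that trims the primers, and it stood at 1.19, 1.18 and 1.24 in old MPP4 and at 1.12, 1.08, 0.954, 1.09 and 1.06 in young MPP4, with no overlap and a difference of 0.143 (SE 0.0383, adjusted p = 0.368). In MPP3 it was at 1.07, 1.16 and 0.674 in old and 1.09, 1.13 and 1.06 in young mice, so that replicate 3 alone was low. The average difference of MPP4 over MPP3 was 0.0997 (SE 0.0644, adjusted p = 0.555). Lig1, the ligase that seals the fragments, was at 2.19, 2.25 and 2.29 in old MPP4 and 2.00, 2.27, 1.80, 1.90 and 1.83 in young MPP4, and at 2.19, 2.00 and 2.39 in old MPP3 and 2.27, 2.24 and 2.21 in young MPP3. The mean was lower in young MPP4 than in young MPP3, at a difference of -0.280 (SE 0.105, adjusted p = 0.391), with replicate 2 of MPP4 as the array that overlapped. The RPA genes, which coat single-stranded DNA, had age differences in MPP4 of 0.0310 (Rpa1), 0.151 (Rpa2) and -0.154 (Rpa3).

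The nucleotide supply genes had a higher mean in old cells for 5 of 5 genes in MPP4 (median 0.147) and 4 of 5 in MPP3 (median 0.0912). These counts include the probe set listed for Tk1, which may not measure that gene and whose MPP4 difference is the median there. Rrm1 encodes the large subunit of ribonucleotide reductase, the enzyme that makes deoxynucleotides. It stood at 2.86, 3.00 and 2.95 in old MPP4 and at 2.58, 2.82, 2.40, 2.70 and 2.50 in young MPP4, with every old array above every young one and a difference of 0.336 (SE 0.0941, adjusted p = 0.383). In MPP3 the values were 3.04, 2.91 and 2.91 in old and 2.93, 2.76 and 2.77 in young mice, with overlap of 1 young array. The average age difference of 0.234 (SE 0.0631, adjusted p = 0.167) had the smallest adjusted p of the 50 genes. Its partner subunit Rrm2 was at 1.76, 1.70 and 1.89 in old and 1.75, 1.76, 1.33, 1.70 and 1.64 in young MPP4, and at 2.00, 2.09 and 1.68 in old and 1.91, 1.86 and 1.73 in young MPP3, all overlapping. Averaged over both ages Rrm2 had a lower mean in MPP4 than in MPP3, with a difference of -0.170 (SE 0.0830, adjusted p = 0.414).

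Tyms, thymidylate synthase, was the replication gene with the most positive test value with age in MPP3. It was at 1.78, 1.73 and 1.77 in old MPP3 and 1.70, 1.58 and 1.52 in young MPP3, with no overlap and a difference of 0.160 (SE 0.0516, adjusted p = 0.556), and at 1.84, 1.70 and 1.88 in old and 1.69, 1.79, 1.65, 1.46 and 1.58 in young MPP4 with overlap. Its average age difference was 0.166 (SE 0.0514, adjusted p = 0.221). Among the alternatives the MPP3 difference was as small as 0.0646 and the average as small as 0.0608. The young MPP3 array of set 1 was the one at 1.70, and in young MPP4 the arrays of set 1 were the highest. Dut, which removes dUTP so that uracil is not built into DNA, was at 1.82, 1.75 and 1.86 in old and 1.81, 1.74, 1.63, 1.77 and 1.76 in young MPP4, and at 1.68, 1.80 and 1.76 in old and 1.74, 1.92 and 1.88 in young MPP3. The difference between its age differences was 0.167 (SE 0.0737, adjusted p = 0.791). The probe set listed for Tk1, thymidine kinase, was at 1.76, 1.69 and 1.48 in old MPP4 and 1.79, 1.77, 1.24, 1.45 and 1.25 in young MPP4, and at 1.73, 1.85 and 1.89 in old MPP3 and 2.03, 1.59 and 1.69 in young MPP3. Averaged over both ages it had a lower mean in MPP4, with a difference of -0.226 (SE 0.110, adjusted p = 0.413), which passed with the array set as a term (adjusted p = 0.0410), where 3.13% of all genes passed and 1 of the 50 did. Uhrf1, which marks newly copied DNA for maintenance methylation, differed by 0.0192 with age in MPP4 and by -0.0951 in MPP3.

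**Figure D4:**
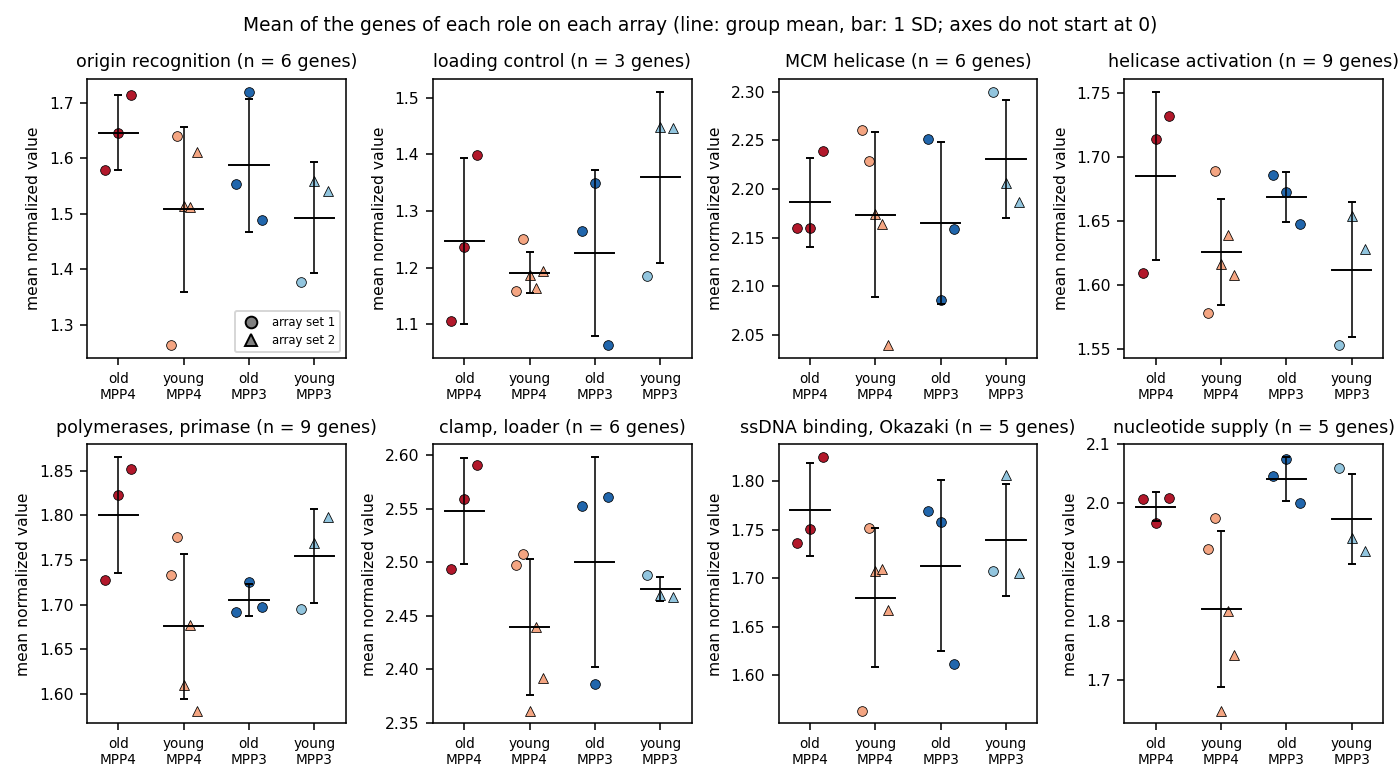
Mean normalized value of the genes of each role on every array, in the order old MPP4, young MPP4, old MPP3 and young MPP3, with circles for array set 1, triangles for array set 2, a line at the group mean and a bar of 1 SD. The nucleotide supply mean is 1.97 to 2.01 on old MPP4 arrays and 1.65 to 1.98 on young MPP4 arrays, and the triangles are the lowest 3 of the young MPP4 points there. That mean includes the probe set listed for Tk1, which may not measure that gene.

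Of the 17 genes with an E2F word, 13 had a higher mean in old than in young MPP4, at a median difference of 0.0434, and of the 25 without one 23 did, at a median of 0.100. In MPP3 the counts were 6 of 17 and 13 of 25, at medians of -0.0393 and 0.0217. These are descriptions, and the difference between the 2 sets of genes was not tested.

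Other genes of the pathway that are not among the 50 (checkpoint and fork factors, histone chaperones, further polymerase subunits and nucleotide enzymes, 43 measured of a list of 45) had a higher mean in old cells for 28 of 43 in MPP4 (median 0.0761) and 21 of 43 in MPP3 (median -0.0292), and 0 passed in either direction in both. At an unadjusted p under 0.05, 6 were higher and 1 was lower in MPP4, beside 4.5% and 5.27% of all genes, and 5 were higher and 3 lower in MPP3, beside 3.44% and 4.75%. Genes of mitosis (19 measured of 21) had a higher mean in old cells for 18 of 19 in MPP4 (median 0.270) and 17 of 19 in MPP3 (median 0.188), with 10 and 3 of them higher and 0 lower at an unadjusted p under 0.05, beside the same shares of all genes, and again 0 passed. The difference between this list and the replication genes was not tested.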

How the data were processed

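RNA of 14 sorted populations was amplified and hybridised to Affymetrix Mouse Gene ST 1.0 arrays. The authors normalized the arrays by RMA (named in the submitters' processing notes) and mapped each array by quantiles to a standard exponential distribution in R, so the deposited score of a probe set reflects its rank on that array, and a shift common to all genes of an array is removed. Intensities over background were not used here, and precision is limited by how few arrays there are. The study's methods compared ages within a population by SAM; here limma was used on the same values.

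Of 22115 probe sets, 19236 had 1 gene symbol in the platform annotation, 744 had several or none, and 2135 were not listed. The probe set with the highest mean was kept for each of 19155 genes, and 71 of those with 1 symbol had no RefSeq match. Fits used limma 3.58.1 in R 4.3.3 (lmFit, eBayes, two-sided, Benjamini-Hochberg over all genes, threshold 0.05): old versus young MPP4 and MPP3, MPP4 versus MPP3 at each age, and, from all 14 arrays, the average age difference, the average population difference and the difference between the age differences. The fit was tested on simulated data. The replicates are biological, with no label for the animals behind them.

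Genes given with a difference, SE and adjusted p were those past the threshold (at most 8 by moderated test value) and, where under 4 passed, the 3 with the most positive and the 3 with the most negative test value per comparison, and values on every array were also given for Mcm2, Cdc6, Cdt1, Gmnn, Pcna, Pola1, Pole, Rrm1, Rrm2 and Tyms. The genes, role groups and other lists were chosen with earlier results of these data known. Promoter windows came from RefSeq (GRCm38.p6), and the build used for the arrays is not given in the sources used here. Alternatives changed the variance model, array weights, probe set choice, filter, scale, samples in the fit, replicate block, array set, Xist arrays and each replicate.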

Additional observations from a re-analysis of the deposited data

Results flagged for a closer look

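In the group of 5 young MPP4 arrays, 4 of the 50 replication genes had 1 array whose distance from the next was large for the range of the group (over 0.71 of it), which was 8% of them against 6.59% of all genes, and chance gives about 1 in 20 groups. Orc4 was at 1.025 on young MPP4 replicate 1, with the next lowest array at 1.654. Mcm8 was at 0.6525 on the same array, with the next at 1.191. Gins3 was highest there, at 1.788, with the next array at 1.611. Gins1 was at 1.236 on young MPP4 replicate 3, with the next lowest at 1.614. The other groups held 3 arrays and were not tested.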

How the results depend on the processing

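Of 870 values of named genes under alternatives, 851 kept their direction and their side of the threshold, 16 passed it where they had not, and 3 changed sign: Mcm6 in young MPP4 versus young MPP3 (-0.0202 with array set 1 only), Prim2 in the same comparison (-0.00315 without arrays with Xist above 1) and Cdc45 in the difference between the age differences (0.0334 with array set 1 only). The cause was not tested. With array weights, 1 gene was called higher and 7 lower in young MPP4 versus young MPP3 (9.44% of all genes called), 7 higher and 1 lower in the average age difference (22.9%), 0 higher and 2 lower in the average population difference (10.7%), and 3 higher and 1 lower in the difference between the age differences (3% of genes), and the MPP3 age median was 0.0265. With the array set as a term, 1 was called higher (Gins3) and 1 lower (Cdc6) in young MPP4 versus young MPP3 (1.41% of all genes called) and 1 lower (Tk1) in the average population difference (3.13%). Without both young arrays numbered 1, an alternative added after the data were seen, 1 was called higher (Gins3) and 1 lower (Pole2) in young MPP4 versus young MPP3 (0.715% of all genes), and the median of the difference between the age differences was 0.0449 (0.0474 with array set 1 only). Leaving out 1 array at a time gave 0 to 1 genes called lower in young MPP4 versus young MPP3 (Pole2, without young MPP3 replicate 1, 0.564% of all genes) and 0 to 1 in the average population difference (Cdc6, without old MPP3 replicate 3, 1.26% of all genes), and 0 called in every other comparison. Where this left 1 array of an array set in a group, that array was assumed to vary like the others. Same-numbered arrays deviated together in some pairs and not in others (correlations from -0.192 to 0.407). The numbers were therefore not used as pairs outside the replicate block. The highest correlation, 0.407, was between replicate 1 of young MPP4 and replicate 1 of young MPP3. Both of these arrays had Xist above 1 (3.49 and 3.52), and whether they share a source was not tested. With the replicate block, 0 replication genes were called in any comparison, and 42 of 50 had a higher mean in old MPP4, against 43 without it. With 3 arrays in most groups, differences near the SE of 0.0292 to 0.322 that single genes had in the age comparisons cannot be told from the spread.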
